A study of Mus musculus with 69 samples.

Results

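The complement genes measured here were 9 components and receptors: C1qa, C1qb and C1qc, C2, C4b, C3, Cfb, C3ar1 and C5ar1. Probes on the array were assigned to them when the probe's accession mapped to the gene's RefSeq symbol, which gave 12 probes of 27484 probes with a symbol and 9 genes of the 18660 genes tested. The lungs came from 69 female C57BL/6 mice, delivered at 5 to 7 weeks of age and acclimatised for 1 to 3 weeks, each of which received a single intratracheal instillation and was sampled on day 1 or day 28. The instillation held 18, 54 or 162 µg of a nano-TiO2, either the material NRCWE-030 or the material NRCWE-025, dispersed in water with 2% serum, or that vehicle alone. This made 14 groups of 5 mice, except NRCWE-025 at 162 µg on day 28 with 4, and both materials shared the same 5 control mice per day. Each array compared whole-lung RNA of 1 mouse (Cy5) with a common mouse reference RNA (Cy3), and values are log2 of lung over reference, so the levels of different genes cannot be set against each other. In whole lung, fewer cells of a type and less RNA per cell cannot be told apart.

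Complement is a cascade of serum proteins that marks particles, microbes and dying cells for removal and releases small peptides that attract and activate leukocytes. The classical pathway starts when C1q binds a surface and C4 and C2 are cleaved to form a C3-cleaving enzyme, while the alternative pathway forms such an enzyme from C3b and factor B. Both meet at C3, whose fragment C3a is sensed by C3ar1, and further cleavage yields C5a, which is sensed by C5ar1. Much complement is made in the liver, but macrophages make C1q, and epithelial cells and macrophages of the lung make C3 and factor B.

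Of the 9 genes, 5 had a promoter sequence in the RefSeq table used (assembly GRCm38.p6), covering 250 bases before and 50 bases from the start site on, all read on the minus strand. The promoters of C3 (chr17:57228087-57228386) and C3ar1 (chr6:122856108-122856407) are shown because these genes were higher after 162 than after 18 µg of NRCWE-030 on day 1. Those of C1qb (chr4:136886151-136886450) and C1qc (chr4:136892865-136893164), chains of the same protein, are shown because their estimates after 162 µg of NRCWE-030 on day 1 were 0.71 and -0.04. Sequences are written 5′ to 3′, and capitals mark motif matches.

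C3: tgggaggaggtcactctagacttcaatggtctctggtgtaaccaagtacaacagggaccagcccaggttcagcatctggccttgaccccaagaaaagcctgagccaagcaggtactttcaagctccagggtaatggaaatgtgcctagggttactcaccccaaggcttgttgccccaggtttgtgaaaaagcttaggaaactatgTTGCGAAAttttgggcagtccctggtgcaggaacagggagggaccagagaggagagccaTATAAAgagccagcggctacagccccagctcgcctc
C3ar1: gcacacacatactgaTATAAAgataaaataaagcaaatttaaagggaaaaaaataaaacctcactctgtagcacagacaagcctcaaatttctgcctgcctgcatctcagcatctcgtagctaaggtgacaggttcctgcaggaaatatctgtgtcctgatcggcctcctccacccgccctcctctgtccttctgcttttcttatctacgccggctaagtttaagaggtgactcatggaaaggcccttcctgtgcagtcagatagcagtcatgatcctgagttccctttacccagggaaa
C1qb: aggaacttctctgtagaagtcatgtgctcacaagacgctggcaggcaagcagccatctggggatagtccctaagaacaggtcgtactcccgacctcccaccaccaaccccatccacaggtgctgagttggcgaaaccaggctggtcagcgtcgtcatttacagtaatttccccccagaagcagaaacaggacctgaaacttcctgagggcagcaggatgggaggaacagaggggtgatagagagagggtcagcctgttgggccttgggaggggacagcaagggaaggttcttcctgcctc
C1qc: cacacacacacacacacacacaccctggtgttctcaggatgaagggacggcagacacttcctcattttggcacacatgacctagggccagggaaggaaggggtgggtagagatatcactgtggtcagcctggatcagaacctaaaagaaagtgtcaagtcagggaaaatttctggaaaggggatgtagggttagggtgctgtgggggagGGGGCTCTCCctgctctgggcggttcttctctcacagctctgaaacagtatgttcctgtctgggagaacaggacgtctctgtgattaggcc

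Both strands were searched for the C/EBP letters TTGCNNAA, the STAT letters TTCNNNGAA, the ISRE and kappaB motifs and the TATA box TATAAA. C3 held a C/EBP match, TTGCGAAA, whose first base lay at -45 from the start site, and a TATA box match at 14. C3ar1 held a TATA box match at -235, C1qc a kappaB match, GGGGCTCTCC, at -41, and C1qb and C5ar1 held no match. Among all 32851 promoters of this length, 10.8% held the C/EBP letters, 8.3% STAT, 3.44% ISRE, 4.51% kappaB and 13.62% the TATA box, so a match is a description of the letters and nothing more. In the order of genes in RefSeq, C1qb, C1qc and C1qa follow each other on chromosome 4, and Cfb lies next to C2 on chromosome 17, the chromosome that also carries C4b and C3. C3ar1 lies on chromosome 6 and C5ar1 on chromosome 7 beside C5ar2, the second C5a receptor.

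Between 49.1% and 72.81% of spots per array were well above background in the lung channel, no spot was saturated, and the lowest correlation between any 2 arrays across genes was 0.851. Arrays came from 19 slides. Probes for C1qa, C1qb, C1qc, C2, C3, C4b and Cfb were well above background on all 69 arrays, with median raw lung signals from 166 for the dimmer C3 probe to 66100 for the brighter. The receptors were dim. C3ar1 was measured above background on 55 arrays by its brighter probe, whose median signal was 37, and on 6 arrays by the other, while the single probe of C5ar1 was well above background on 2 of 69 arrays, so its values mostly bound its level from above.

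On day 1, the transcripts of Cfb and C3ar1 were higher after 162 µg of NRCWE-030 than after vehicle. Cfb, factor B of the alternative pathway, rose 2.42-fold and C3ar1, the receptor for C3a, rose by 0.37 on the log2 scale as the median of a detected probe, which rose by 0.61, and a probe mostly below background. C3, the central component, was 1.95-fold higher with an adjusted p of 0.0688, which missed the threshold of 0.05. Of the 9 genes, 2 passed, beside 1.69% of all 18660 genes (1.22% higher), and the median log2 difference was 0.33 over the 9 genes and 0.005 over all genes.

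Cfb measured 2.35, 3.42, 3.76, 3.99 and 3.88 in the 5 control mice of day 1. After 162 µg of NRCWE-030 it measured 5.28, 4.84, 4.70, 4.63 and 4.31. The groups did not overlap, with all exposed mice above every control, as in 2.9% of all genes. In this gene 1 control lay more than 1 log2 unit below the other 4. The difference was 1.27 ± 0.28 (SE, n = 5 and 5) on the log2 scale, with an adjusted p of 0.0245 by limma. At 54 µg Cfb measured 4.01, 4.43, 4.65, 3.72 and 4.57, of which 4 lay above every control, and the difference of 0.80 ± 0.28 did not pass (adjusted p = 0.36, beside 0.0804% of genes called). At 18 µg the values of 3.62, 3.52, 3.04, 3.94 and 2.74 lay within the range of the controls (none of the 9 genes called, beside 0.00536% of genes).

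C3 measured 1.54, 2.24, 1.66, 2.13 and 1.53 in controls of day 1 and 3.23, 2.49, 2.70, 2.73 and 2.77 after 162 µg of NRCWE-030. All 5 exposed mice lay above every control, as was the case for 2.9% of all genes, and the log2 difference was 0.96 ± 0.26. It passed the threshold in 5 of 13 alternative settings of the processing. The 54 µg group spread from 1.69 to 3.03 and the 18 µg group from 0.84 to 2.31, so both overlapped the controls.

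C3ar1 measured -0.07, -0.21, -0.34, -0.086 and -0.42 in controls and 0.18, 0.18, 0.060, 0.063 and 0.26 after 162 µg of NRCWE-030. All exposed mice lay above every control, as in 2.9% of all genes, and the log2 difference was 0.37 ± 0.09 (adjusted p = 0.0349). C3ar1 was above background on 4 of 5 control arrays and 5 of 5 exposed arrays. C5ar1, the receptor for C5a, differed by -0.003 between the same groups, at a signal that is no measure of its level.

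**Figure D1:**
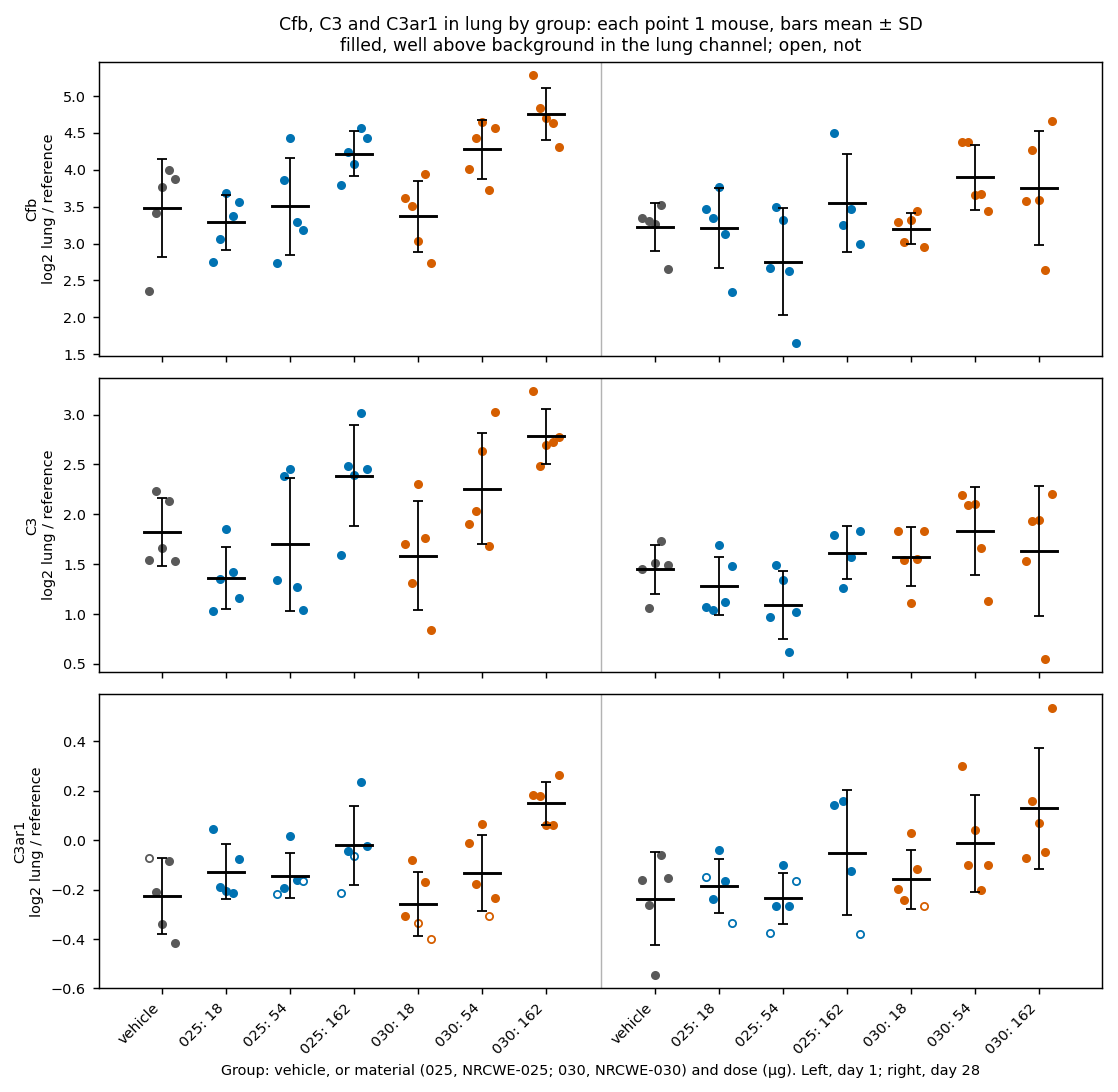
Cfb, C3 and C3ar1 in every mouse (log2 lung over reference, y axis) by dose, day and material (x axis), each gene on its own scale, with bars for the group mean ± SD and filled points for arrays well above background. The 5 mice given 162 µg of NRCWE-030 lie above all day 1 controls for each of the 3 genes, as in 2.9% of all genes.

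Probes of the same gene were not alike in size. The brighter C3 probe averaged 2.31 ± 0.33 (SD, n = 5) in controls and 3.74 ± 0.19 after 162 µg of NRCWE-030 on day 1. In a fit with probes as rows, where 0.862% of probes passed, that was a log2 difference of 1.43 ± 0.30 (SE, adjusted p = 0.0269), while the dimmer C3 probe differed by 0.50 ± 0.26 (adjusted p = 0.521). For C3ar1, the brighter probe differed by 0.61 ± 0.11 (adjusted p = 0.00871) and the probe that was mostly below background by 0.14 (adjusted p = 0.698). The gene values above are medians over both probes and lie between them.

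The 162 and 18 µg groups of NRCWE-030 on day 1 were also set against each other, in the fit that holds the controls, whose spread enters the errors. Here Cfb was 2.61-fold higher (log2 1.38 ± 0.28, adjusted p = 0.0226), C3 2.29-fold (1.20 ± 0.26, adjusted p = 0.0301) and C3ar1 0.41 ± 0.09 higher on the log2 scale (adjusted p = 0.0293). These were 3 of the 9 genes, beside 1.03% of all genes, and in all 3, and in C1qa, every mouse of the 162 µg group lay above every mouse of the 18 µg group, as in 2.15% of all genes. C1qb and C1qa stood just outside the threshold, with adjusted p of 0.0564 and 0.0908. Cfb was lowest in 18 µg replicates 3 and 5, whose arrays had 52.41% and 49.82% of spots well above background. Other 18 µg arrays reached 64.63%, and the 162 µg arrays ranged from 54.17% to 65.23%. The part of array quality in these differences was not tested. Across control and the 3 doses together, limma's F-test called Cfb (adjusted p = 0.0318, beside 0.954% of genes), with C3ar1 at 0.0578 and C3 at 0.0722. An ordinary F-test, which does not share the spread over genes, called none, with Cfb at 0.0937.

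These calls rested on few arrays and slides. On slides 14 and 1, the slides that held both a control and an NRCWE-030 162 µg array of day 1, Cfb was 1.29 and 0.82 higher, C3 1.098 and 1.164, and C3ar1 0.27 and 0.48. With slide as a fixed block the Cfb difference from control was 1.04 (adjusted p = 0.0739) and with scan day 1.096 (adjusted p = 0.065), and neither Cfb nor C3ar1 was then called. Leaving out control replicate 2, or exposed replicate 1 or 2, ended the Cfb call from control, with adjusted p of 0.0583, 0.0727 and 0.0673. For C3ar1, leaving out control replicate 2, 3 or 5, or exposed replicate 1, 2 or 5, did so, with adjusted p between 0.0703 and 0.093. The C3ar1 difference ranged from 0.28 with the series matrix values (adjusted p = 0.0852) to 0.99 with the scanner log ratio (adjusted p = 0.102), and was called with neither. The main values add an offset of 50 to the signals, above the median signals of both C3ar1 probes (37 and 10.5). The part of this offset in the size of the C3ar1 difference was not tested.

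After 162 µg of NRCWE-025 none of the 9 genes was called on day 1, beside 0.209% of all genes. The estimates of Cfb, C3, C3ar1, C1qa and C1qb were below those for NRCWE-030, and those of C1qc, C2, C4b and C5ar1 above them. Cfb measured 3.80, 4.24, 4.08, 4.56 and 4.43, with 4 of 5 mice above every control, and the log2 difference was 0.74 ± 0.30 (adjusted p = 0.313). C3 measured 1.595, 2.49, 2.39, 3.01 and 2.46, again with 4 of 5 above every control, and differed by 0.57 ± 0.28 (adjusted p = 0.415). C3ar1 differed by 0.20 ± 0.09 (adjusted p = 0.349). Against 18 µg of NRCWE-025, C3 was 1.03 ± 0.28 higher and Cfb 0.94 ± 0.30 higher at 162 µg (adjusted p = 0.11 and 0.174, beside 0.311% of genes called). The brighter C3 probe taken alone did pass in that comparison, at 1.43 ± 0.29 with an adjusted p of 0.0426 beside 0.191% of probes. The F-test for dose called none of the 9 genes for NRCWE-025 on day 1, beside 0.0214% of genes. Against control, 18 and 54 µg of NRCWE-025 called none of the 9 genes on day 1 (0% of all genes for each dose).

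The direct comparison of the materials at 162 µg on day 1 called no gene (0%, of all genes as of the 9). Cfb was 0.53 ± 0.32 higher after NRCWE-030 than after NRCWE-025 (95% interval -0.11 to 1.17, adjusted p = 0.851), and C3 was 0.39 ± 0.27 higher (-0.14 to 0.93, adjusted p = 0.87). A difference between the materials was thus not detectable for these genes at this number of mice, and the intervals include differences as large as 1.17 and 0.93. The F-test over the 3 doses of a day called none of the 9 genes on day 1 (beside 0.155% of genes) or on day 28 (beside 0.241%).

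**Figure D2:**
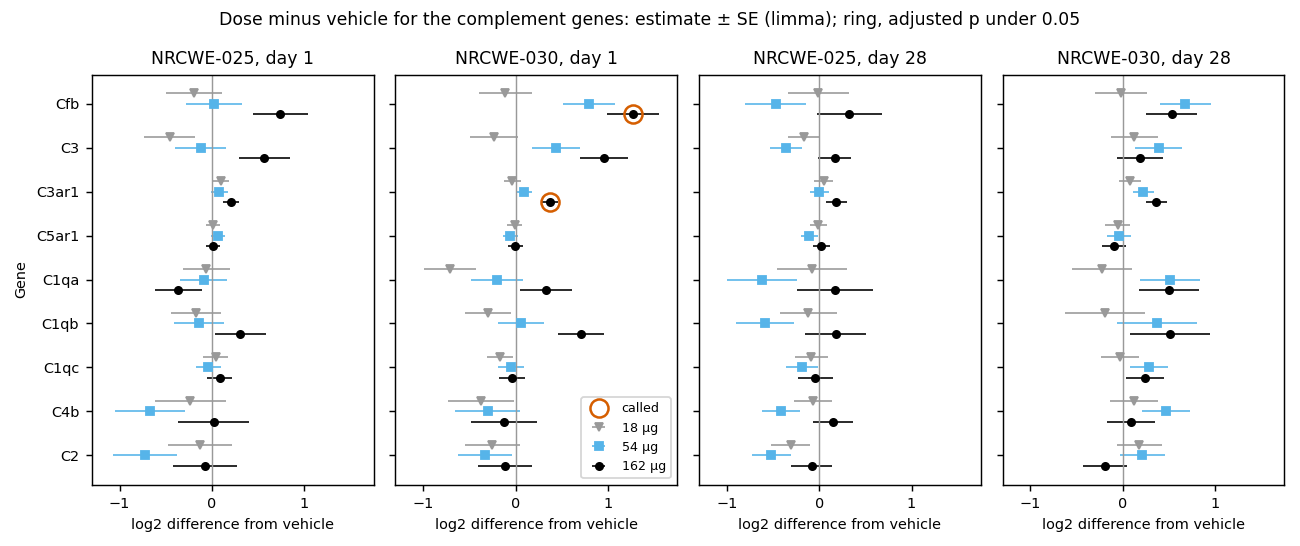
Log2 difference from the control mice of the same day (x axis) for the 9 genes (y axis), with standard errors as bars and a panel for each material and day, at 18, 54 and 162 µg. Rings mark the calls at an adjusted p under 0.05, which are Cfb and C3ar1 at 162 µg of NRCWE-030 on day 1. At 162 µg on day 1 the values for Cfb are 1.27 (NRCWE-030) and 0.74 (NRCWE-025), while those for C2 and C4b lie near 0.

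The 3 chains of C1q, the recognition protein of the classical pathway, had estimates of different size, and the difference between chains was not tested. After 162 µg of NRCWE-030 on day 1, C1qb was 0.71 ± 0.25 higher than control (adjusted p = 0.179), with 3.94, 3.64, 2.72, 3.24 and 3.24 against 1.98, 3.22, 2.66, 3.11 and 2.27. Of these exposed mice, 4 lay above every control. C1qa was 0.33 ± 0.28 higher (adjusted p = 0.721), with 1 exposed mouse above every control. C1qc differed by -0.04 ± 0.14 (95% interval -0.33 to 0.25, adjusted p = 0.96), with 4.08, 3.66, 3.58, 3.60 and 3.32 against 3.63, 4.09, 3.58, 3.61 and 3.52. Within slides 14 and 1, C1qc differed from control by 0.462 and 0.058, C1qb by 0.834 and 0.445, and C1qa by 0.34 and 0.327. No C1q chain passed against control at any dose of either material on either day.

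Against 18 µg of NRCWE-030, C1qa was 1.04 ± 0.28 higher at 162 µg. From the scanner software's log ratio this difference was 0.18. C1qa measured 3.09, 3.32, 1.47, 3.32 and 2.61 after 18 µg, and its value of 1.47 was the lowest of the 69 arrays. C1qa was also low in single mice of NRCWE-025 at 54 µg on day 28 (1.55), NRCWE-025 at 162 µg on day 1 (1.86) and NRCWE-030 at 18 µg on day 28 (1.98). In these 3 mice C1qc measured 3.42, 3.51 and 4.04. The arrays with C1qa at 1.47, 1.55, 1.86 and 1.98 had 52.41%, 49.1%, 50.03% and 53.21% of spots well above background. The median array had 62.14%, and 49.1% was the lowest share of all arrays. Whether array quality had a part in the low C1qa values was not tested.

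**Figure D3:**
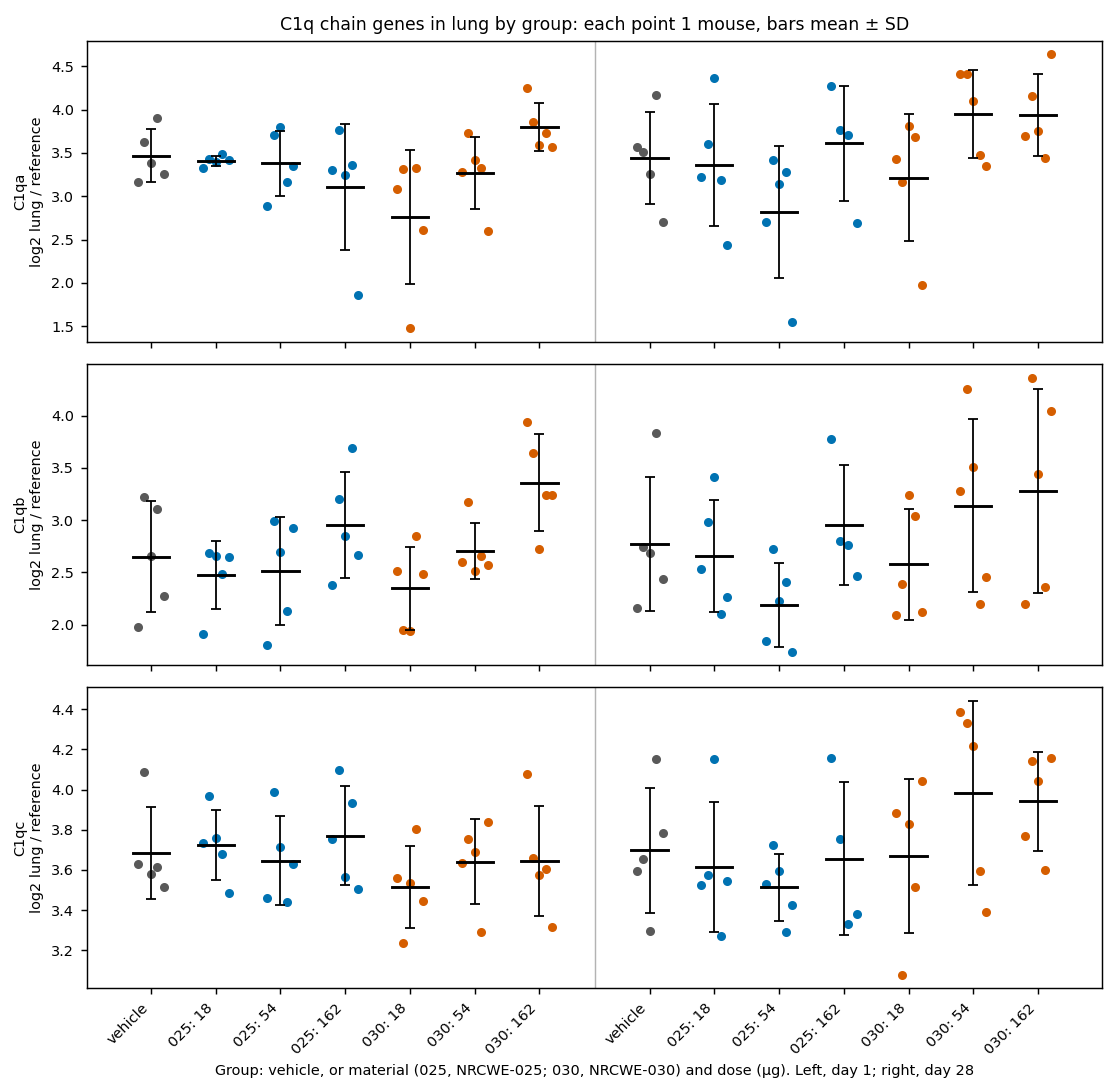
C1qa, C1qb and C1qc in every mouse (log2 lung over reference, y axis) by dose, day and material (x axis), with bars for the group mean ± SD and a separate scale for each gene. C1qc spans from 3.08 to 4.38, less than C1qa and C1qb, and C1qa has single low mice, the lowest at 1.47.

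C2 and C4b, which together form the C3-cleaving enzyme of the classical pathway, were not called in any dose comparison on day 1. After 162 µg of NRCWE-030, C2 measured 2.78, 2.49, 2.85, 3.48 and 3.45 against 2.13, 2.98, 3.46, 3.65 and 3.40 in controls. The log2 difference was -0.12 ± 0.30 (95% interval -0.73 to 0.50, adjusted p = 0.942). C4b differed by -0.13 ± 0.36 (-0.87 to 0.62, adjusted p = 0.95), with 3.34, 2.82, 3.14, 3.90 and 4.09 against 2.40, 3.42, 4.02, 4.32 and 3.75. The wide intervals reflect the spread between arrays of a group, and a rise of up to 0.50 for C2 lies within them. Mouse, slide and scan day were not separated in that spread. Within slides 14 and 1, 162 µg of NRCWE-030 differed from control by -0.87 and -0.549 for C2 and by -0.979 and -0.608 for C4b. For NRCWE-025 on slides 8 and 4 the differences were 1.365 and 0.236 for C2 and 1.878 and 0.286 for C4b. These within-slide differences were not tested. C4b has a near-identical paralog, C4a, whose probe was well above background on 8 arrays, and the C4b signal can hold both transcripts. The lowest groups of both genes were NRCWE-025 at 54 µg on day 1, at 2.40 for C2 and 2.91 for C4b, where C2 was 0.72 ± 0.35 below control (adjusted p = 0.764).

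**Figure D4:**
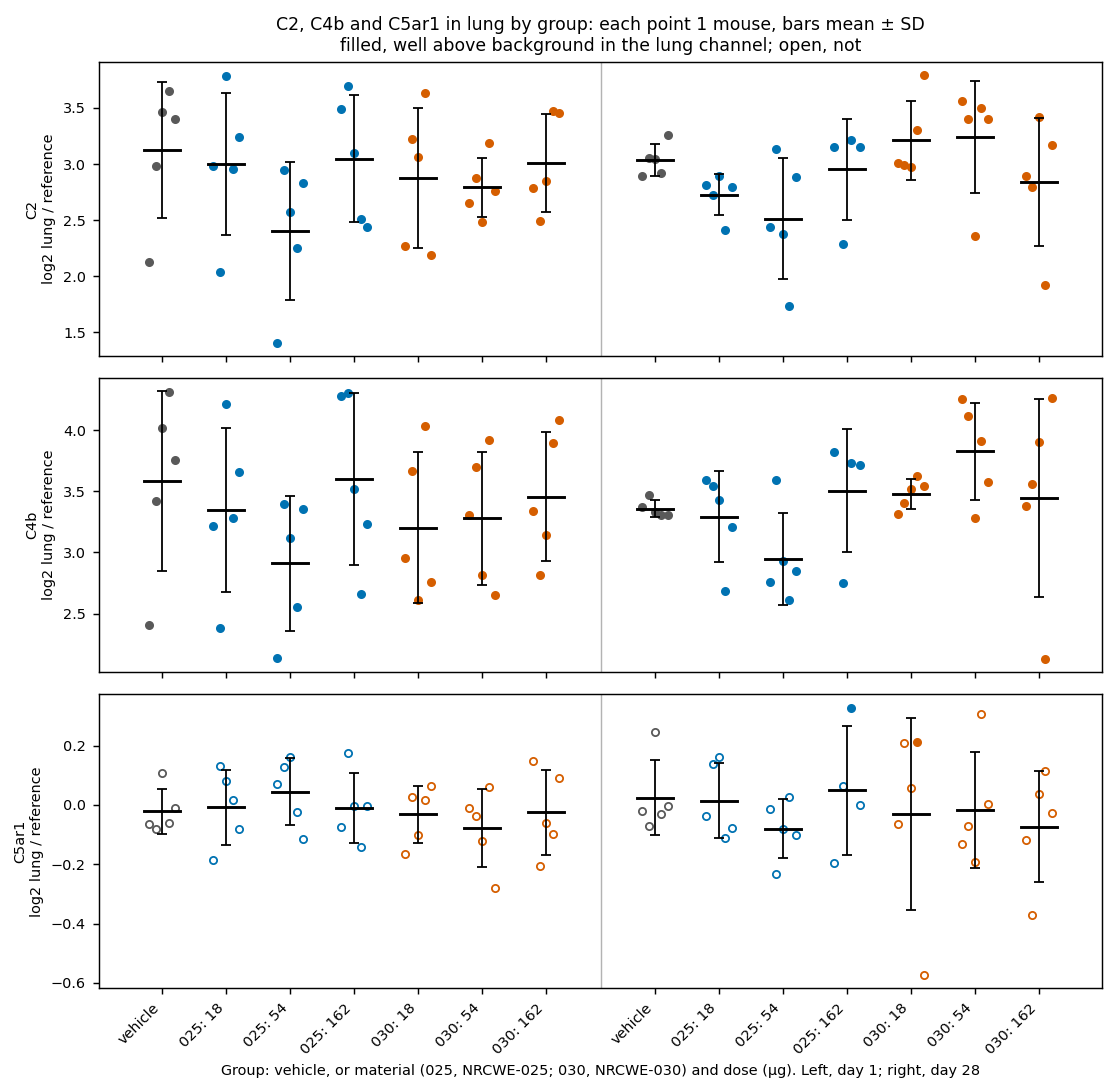
C2, C4b and C5ar1 in every mouse (log2 lung over reference, y axis) by dose, day and material (x axis), each gene on its own scale, with bars for the group mean ± SD and open points for arrays not well above background. C2 and C4b of control and 162 µg mice overlap on day 1, and nearly all C5ar1 points are open.

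On day 28 none of the 9 genes passed at any dose of either material, against control or by the F-test for dose. Of all genes, 0.0589%, 0.0268% and 0.0161% were called at 18, 54 and 162 µg of NRCWE-025 and 0.118%, 0.0536% and 0.0965% at those of NRCWE-030, and by the F-test 0.0268% for NRCWE-025 and 0.102% for NRCWE-030. At 162 µg of NRCWE-030 the largest estimate relative to its error was that of C3ar1, with -0.072, 0.16, 0.07, -0.046 and 0.54 against -0.16, -0.26, -0.55, -0.059 and -0.15. The difference was 0.37 ± 0.12 (adjusted p = 0.402, beside 0.0965% of genes called), and 4 of 5 exposed mice lay above every control. Cfb was 0.53 ± 0.28 higher (adjusted p = 0.705) and C3 0.19 ± 0.25 higher (adjusted p = 0.915). The effect of 162 µg of NRCWE-030 was 0.78 ± 0.38 larger on day 1 than on day 28 for C3 (adjusted p = 0.632, beside 0.198% of genes called) and 0.74 ± 0.45 larger for Cfb (adjusted p = 0.74), so a change between days was not established. For C3ar1 that difference was 0.009 ± 0.14 (95% interval -0.27 to 0.29). Between the vehicle controls of both days none of the 9 genes passed, beside 0.0375% of genes, and C3 was 0.37 ± 0.27 lower on day 28 (adjusted p = 0.733). The vehicle controls of day 1 and day 28 shared no slide, so day and slide cannot be told apart there.

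At 54 µg on day 28 all 9 genes had higher estimates after NRCWE-030 than after NRCWE-025, with a median log2 difference of 0.75, where 49.7% of all genes lay above 0. None was called, beside 0.0804% of genes. Before adjustment 8 of the 9 had a p under 0.05, as did 7.86% of all genes. The 9 genes were measured on the same arrays and many of them co-vary across mice, so the 8 are not separate pieces of evidence. Cfb measured 4.37, 4.37, 3.65, 3.67 and 3.44 after NRCWE-030 and 2.67, 3.50, 3.32, 2.62 and 1.66 after NRCWE-025, a difference of 1.15 ± 0.32 (adjusted p = 0.168), and C1qa differed by 1.13 ± 0.34 (adjusted p = 0.256). The Cfb value of 1.66 came from the array with the lowest share of spots well above background (49.1%). On that array C1qa (1.55) and C1qb (1.74) were also the lowest of their group. On slides 15 and 17, which held an array of each group, Cfb differed by 0.82 and 0.35, C4b by 0.96 and 0.98, C2 by 1.67 and 1.13, C3 by 0.52 and 0.32, and C1qa by 0.078 and 0.33. The other 4 genes did not keep their direction on both slides. C1qb differed by 0.048 and -0.024, C1qc by 0.101 and -0.001, C3ar1 by 0.168 and -0.10, and C5ar1 by -0.023 and 0.39. The NRCWE-025 group was the lowest of all 14 for Cfb, C3, C1qb, C1qc and C5ar1, the last mostly below background. The NRCWE-030 group was the highest for C1qa, C1qc, C2 and C4b.

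Ordered by group mean, Cfb was highest after NRCWE-030 at 162 µg on day 1 (4.75 ± 0.35, SD, n = 5), followed by NRCWE-030 at 54 µg (4.28) and NRCWE-025 at 162 µg (4.22) on day 1 and NRCWE-030 at 54 µg on day 28 (3.90). The lowest was NRCWE-025 at 54 µg on day 28 (2.75). C3 was highest in NRCWE-030 at 162 µg (2.78), NRCWE-025 at 162 µg (2.39) and NRCWE-030 at 54 µg (2.26), all on day 1. The step from the highest to the next group of each gene is within the pooled spread within groups, which was 0.52 for Cfb and 0.44 for C3.

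Arrays of the same group differed more in most complement genes than in most of the genes tested, which include genes below background. The spread between mice was not separated from that between slides or scan days. The pooled SD within groups was 0.56 for C1qa and 0.57 for C1qb, larger than for 98.8% of all genes tested, and 0.54 for C4b, 0.52 for Cfb, 0.49 for C2 and 0.44 for C3, where the median over all genes was 0.17. C1qc had an SD of 0.29, larger than 84.5% of genes. The dim receptors C3ar1 (0.16) and C5ar1 (0.16) were near the median. The median signals of their probes (37, 10.5 and 11.5) lay below the added offset of 50, so these SDs cannot be set against those of brighter genes. The spread was not ranked among detected genes alone, so a larger spread than in other detected genes was not shown.

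With group means taken out, C2 and C4b followed each other closely across the 69 mice. Their Pearson r was 0.87 (Spearman rho 0.864, permutation p = 1e-05 for each, the smallest that the 100000 permutations can give, adjusted p = 5.14e-05 over 36 pairs). It was 0.853 without the 2 mice farthest from the median of C2, 0.905 with slide means also taken out, 0.906 on day 1 and 0.803 on day 28. Of all 18659 other genes, C4b was the one that correlated most with C2, and C2 the one that correlated most with C4b. The next for C2 were Aldh1a2, an enzyme of retinoic acid synthesis, at 0.865 and Upk3b, a marker of mesothelium, at 0.854, while the 5th and 95th percentiles over all genes were -0.259 and 0.288.

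Cfb, which lies beside C2 in the genome, went with other members. Its r with C2 was 0.311 (rho 0.198, permutation p adjusted 0.0555 for r), against 0.638 with C1qb, 0.637 with C1qa and 0.571 with C3 (rho 0.558, 0.515 without 2 mice, 0.458 with slide means out). C1qa and C1qb correlated at 0.661 (rho 0.749) and C1qb and C1qc at 0.63 (rho 0.621, 0.865 with slide means out). Over all genes, the 5th and 95th percentiles of r were -0.52 and 0.549 with C1qa, -0.336 and 0.377 with C1qb, and -0.404 and 0.436 with Cfb. By r with C1qa, C1qb ranked 292 of 18659 genes and C1qc (0.431) ranked 1875, within those percentiles. In all, 18 of the 36 pairs passed by r, 17 of them above 0, and 17 by rho. The share of pairs of other genes that would pass was not computed, so these counts are not particular to complement. The pair below 0, C1qc and C5ar1 (r = -0.365, permutation p adjusted 0.0349), did not pass by rho (-0.29, permutation p adjusted 0.071), and C5ar1 was mostly below background. C1qb and C4b passed at 0.33 but stood at 0.012 once slide means were taken out. The genes most correlated with Cfb across mice were Sting1 (0.808) and Aif1 (0.776), a macrophage gene that was also high for C1qb (0.773), and for C3 it was Sfrp1 (0.788).

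**Figure D5:**
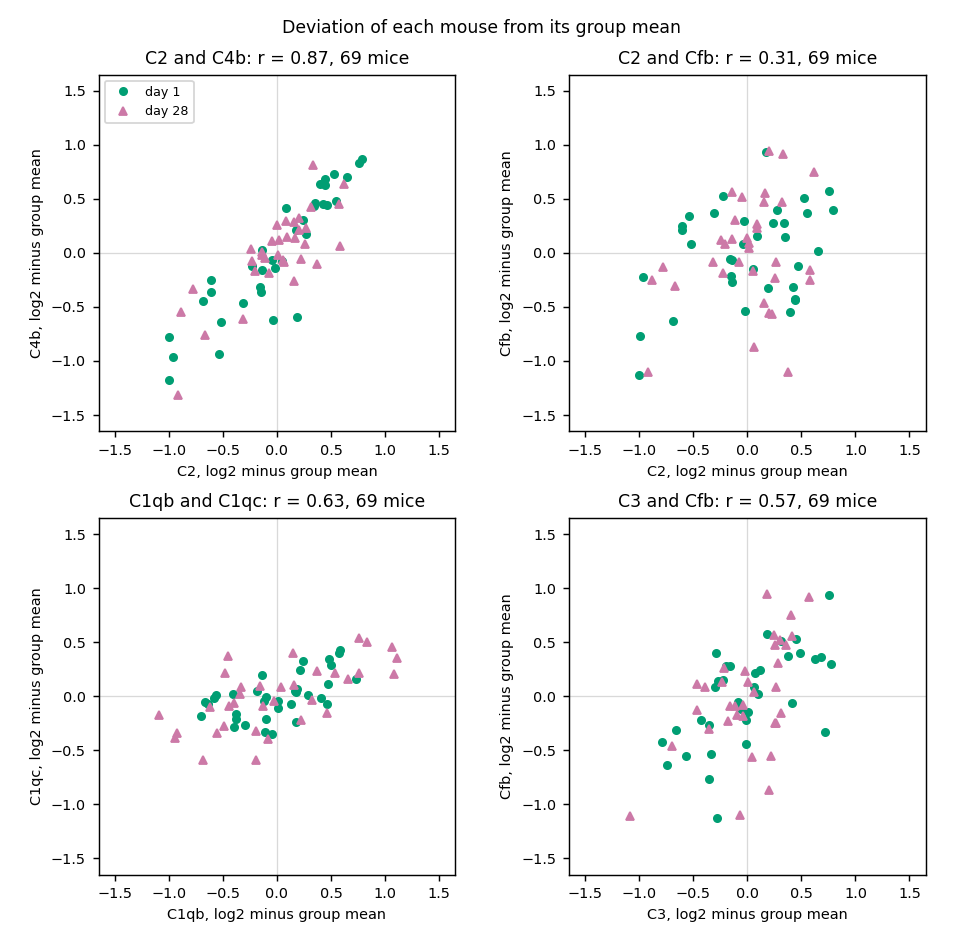
Pairs of complement genes across the 69 mice, each axis showing log2 lung over reference minus the mean of the mouse's group, with 1 point per mouse, coloured by day. C2 and C4b lie along a line (r = 0.87), while C3 and Cfb (r = 0.571), C1qb and C1qc (r = 0.63) and C2 and Cfb (r = 0.311) lie less closely.

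Over the 14 group means, the genes most like Cfb were Capg (0.968), an actin-capping protein, Cstb (0.964), a cathepsin inhibitor, and Tgfbi (0.962), a matrix protein. Those most like C3 were Capg (0.955), Slpi (0.953), an antiprotease of airway secretions, and Ripk3 (0.951). C3ar1 was most like Fcgr1 (0.951), a high-affinity Fc receptor of monocytes and macrophages, Wfdc17 (0.926) and Fcer1g (0.924). C1qb was most like Ifi35 (0.945), Fcgr1 (0.943) and Isg15 (0.927), of which Ifi35 and Isg15 are interferon-induced genes, and C1qa was most like Glud1 (0.954). The best match was weaker for C1qc (Ctsd, 0.874), C4b (Sebox, 0.861), C2 (Adgrd1, 0.848) and C5ar1 (Glipr2, 0.736). Among the members, C3 and Cfb had an r of 0.961 over the same group means and C2 and C4b 0.901. These values were taken from 13705 candidate genes and share 14 points, so they are descriptions.

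A list of 45 other complement genes was set beside the members, of which 44 were tested (C7 was not). After 162 µg of NRCWE-030 on day 1, 2 of the 44 rose and none fell, where 1.69% of all genes were called and 1.22% rose. The median difference was 0.021, with 23 of the 44 above 0. C1ra, a protease of the C1 complex, rose 1.51-fold (0.60 ± 0.13, adjusted p = 0.0192), and Itgam, the alpha chain of complement receptor 3, rose by 0.46 ± 0.10 (adjusted p = 0.0197). By role, 1 of 13 genes of the classical and lectin start was called, 0 of 2 of the alternative pathway, 0 of 6 terminal components, 0 of 15 regulators and 1 of 8 receptors. Cfd, factor D, had the lowest estimate, at -2.76 (adjusted p = 0.492), and is also a fat cell gene. The mean of the fat marker list, which holds Cfd itself, ranged from 1.76 to 4.72 over the control mice. Against 18 µg, C1ra (0.79, adjusted p = 0.00427), Clu, a fluid-phase regulator also called clusterin (0.97, adjusted p = 0.00558), and Itgam (0.44, adjusted p = 0.0385) were called, beside 1.03% of all genes. Clu lost this call with the scanner log ratio (0.67, adjusted p = 0.171), and Itgam lost it without background correction (adjusted p = 0.0641), with the scanner log ratio (0.236), with the series matrix values (0.0912) and with its brightest probe (0.398). C1ra lost its call from control with slide (adjusted p = 0.0666) or scan day (0.0649) as a block, and Itgam with slide (0.175), with scan day (0.214), with its brightest probe alone (0.366) and in 3 other settings. No gene of this list was called for NRCWE-025 or on day 28.

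Markers of other cells moved in part with the same group. After 162 µg of NRCWE-030 on day 1, 2 of 10 tested macrophage and monocyte markers rose, beside 1.22% of all genes, namely Fcgr1 (0.95, adjusted p = 0.0177) and Trem2 (0.65, adjusted p = 0.0175), and the mean of the list spanned 2.02 to 2.41 against 1.95 to 2.29 in controls. Of 9 tested neutrophil markers 1 rose, Csf3r (1.25, adjusted p = 0.00262), with a list mean of 2.10 to 2.81 against 1.95 to 2.55. The defining macrophage markers Adgre1, Csf1r, Marco and Mrc1 and the neutrophil markers S100a8 and S100a9 were well above background on all 69 arrays. They were not among the markers called as rising, and the means of both lists overlapped those of controls. The markers that rose thus do not stand for their lists. The 6 lung epithelium markers all had estimates below 0, with a median of -0.47 and none called, and their list mean spanned 3.99 to 4.85 (median 4.22) against 4.27 to 5.05 (median 4.78). Endothelium markers had list means of 4.42 to 4.66 against 4.62 to 4.89, B cell markers 0.14 to 0.70 against 0.29 to 1.24, and T cell markers 0.44 to 0.73 against 0.31 to 0.96, with none called. Hepatocyte markers, of interest because the liver makes much complement, had list means of 0.20 to 0.75 against 0.15 to 0.36. Their list means were higher in some mice of other day 1 groups. They spanned 0.11 to 3.20 (median 0.39) after 18 µg of NRCWE-030 and 0.27 to 2.86 (median 2.02) after 54 µg of NRCWE-025. Of the 5 fat markers, which include Cfd, Cidec fell by 1.36 (adjusted p = 0.0306). The mean of the heart muscle markers ranged from 0.55 to 3.94 against 1.23 to 5.23 in controls. The part of these cells in the differences of Cfb, C3 and C3ar1 was not tested.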

How the data were processed

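The data were 69 two-colour 4x44K arrays of mouse lung RNA (Cy5) against reference RNA (Cy3), with no dye swap. The deposited scanner files, from Agilent Feature Extraction 11.0.1.1 per the file headers, hold linear intensity per spot and local background, flags of 0 or 1, and a log10 ratio after dye normalization. The deposited series matrix holds log2 values that the authors made by LOWESS, whose correlation with a loess without background correction was 0.9964 (median over arrays).

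Spots were background-corrected with limma 3.58.1 in R 4.3.3 by normexp (offset 50), with marked local backgrounds set to the median of all unmarked spots on that array, and normalized by loess within arrays. Of 45018 spots per file, 43379 were not controls, and non-uniform or outlying spots were left out. Medians were taken over the spots of a probe and the probes of a gene. Of 41174 probes, 27484 (66.8%) had a RefSeq symbol (assembly GRCm38.p6, used for names and promoters since the array design refers to an earlier assembly), and 93 of 18753 symbols with missing values were left out.

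Control and the 3 doses of a material and day entered 1 limma fit. Materials and days were compared in 1 fit of all 14 groups. Tests were two-sided, with Benjamini-Hochberg adjustment over 18660 genes, called under 0.05. Each array is 1 mouse and the number of arrays limits the precision. Scripts were tested on simulated data. Correlations across mice used 100000 permutations within groups. The named genes were the 9 members, other complement genes called in any dose, material or day comparison, and for each member the 3 genes with the most similar group means. The members and lists, and the replacement of marked backgrounds, were chosen with earlier results of these data known. Alternatives were background correction, normalization, probe summary, filters, slide and scan day as blocks, and leaving out each array. Other tools were data.table (version 1.17.8), Python 3.11.15, NumPy 2.4.6, pandas 2.3.3, SciPy 1.17.1 and Matplotlib 3.10.9.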

Additional observations from a re-analysis of the deposited data

Results flagged for a closer look

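In 9 of 126 combinations of gene and group, the highest or lowest mouse stood apart from the others of its group by Dixon's criterion, which chance alone reaches in about 1 in 20. C1qa was lowest at 1.857 in replicate 5 of NRCWE-025 162 µg on day 1, where the others lay between 3.249 and 3.77. C1qb was lowest at 1.908 in replicate 1 of NRCWE-025 18 µg on day 1 (others 2.487 to 2.686) and highest at 3.171 in replicate 2 of NRCWE-030 54 µg on day 1 (others 2.516 to 2.66). C1qc was highest at 4.088 in replicate 2 of the day 1 controls (others 3.517 to 3.631). C2 at 2.282 and C4b at 2.751 were lowest in the same mouse, replicate 2 of NRCWE-025 162 µg on day 28, whose group mates lay at 3.154 to 3.216 for C2 and 3.716 to 3.825 for C4b. C2 was also lowest at 2.357 in replicate 3 of NRCWE-030 54 µg on day 28 (others 3.398 to 3.56). C3ar1 was highest at 0.017 in replicate 3 of NRCWE-025 54 µg on day 1 (others -0.217 to -0.159). C5ar1 was highest at 0.247 in replicate 3 of the day 28 controls (others -0.07 to -0.005), on an array where it was not well above background.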

How the results depend on the processing

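At 162 against control for NRCWE-030 on day 1, 2 complement genes were called, 1 with the series matrix values, and 0 with slide or with scan day as a fixed block, where the whole table also fell from 316 called genes to 72 and 50 (529 with the scanner log ratio, 494 with slide as a random block). Leaving out 1 array gave 0 to 3. Over all alternatives without an array left out, the Cfb difference ranged from 0.95 to 1.72 and its adjusted p from 0.000507 to 0.0739. At 162 against 18 µg, 3 were called, 1 with the scanner log ratio, 5 with slide as a fixed or random block, and 0 to 4 without 1 array, with 0 when replicate 1 or 2 of the 162 µg group was left out. C3 there lost its call without exposed replicates 1 to 5 or 18 µg replicates 2, 4 or 5, with adjusted p from 0.0513 to 0.112. Cfb lost it without exposed replicate 1 or 2 or 18 µg replicate 3, with adjusted p from 0.0538 to 0.0858. C3ar1 lost it without exposed replicate 1, 2 or 5 or 18 µg replicate 1, 3 or 5, with adjusted p from 0.0559 to 0.091. For dose, 1 was called, 2 without background correction, with scale normalization or with the dim probe filter (which C5ar1 did not pass), 5 with slide as a random block, 3 with the brightest probe of a gene, 0 with the ordinary F-test, and 0 to 2 without 1 array. Cfb lost that call without control replicate 2 or exposed replicates 1 to 4, with adjusted p from 0.0544 to 0.0874. For NRCWE-025 at 162 against 18 µg on day 1, 0 became 2 with slide as a random block (C3 and Cfb) and 1 with the brightest probe (C3). Between the vehicle controls of both days, 0 became 2 with slide as a fixed block, C1qa at -1.88 (adjusted p = 0.0346) and C5ar1 at -0.714 (adjusted p = 0.0242), the latter reversed from 0.046. The cause of these shifts was not tested. For the vehicle controls, slide 12 alone held arrays of both days. With slide as a fixed block, the comparison of days thus ran through the only day 28 array on it, NRCWE-030 18 µg replicate 5. That array had C1qa at 1.976 and the lowest C5ar1 of all arrays, -0.574. Every other count of called complement genes stayed within 1.5 times of the value given above under the alternatives run. Except at 162 against control, the share of all genes called in each setting is not set beside these counts. A change in a count can thus reflect a setting that calls more or fewer genes of the whole table. The brightest probe was an alternative chosen after seeing the data. No paired analysis was possible because the labels carry no replicate numbers. Dim signal limits C3ar1 and C5ar1.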
